A study of Rattus norvegicus with 7 samples.

Results

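The insulin-like growth factor (IGF) system was followed through 10 of its genes in the brains of rats bred to drink or to avoid alcohol. They were the ligands Igf1 and Igf2, the receptors Igf1r, Igf2r and Insr, and the binding proteins Igfbp2, Igfbp3, Igfbp4, Igfbp5 and Igfbp6. Every transcript probe whose accession is a RefSeq transcript of these genes was taken, which gave 12 of the 33849 transcript probes on the array. Igfbp3 and Insr had 2 probes each, and the other genes had 1. Probes were taken by gene name and not by measured values, but the genes were chosen with earlier results of these data known.

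RNA came from the whole brain of adult male Wistar-derived rats that had been given no alcohol, with 1 rat per 1-colour array. The 4 alcohol-preferring rats (P 1 to P 4) belonged to a line bred selectively for high voluntary alcohol drinking. The 3 alcohol non-preferring rats (NP 2 to NP 4) belonged to the opposite line, and all rats were housed in pairs. The submitters left out a further NP array for quality.

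IGF1 and IGF2 are small secreted proteins related to insulin that drive growth and cell survival through the IGF1 receptor and the insulin receptor, both tyrosine kinases. A family of secreted binding proteins holds most of the ligand, prolongs its life and sets how much of it can reach a receptor. In the brain IGF1 is made by neurons and glia and supports neuron survival and myelination, while IGF2 in adult rodents comes mainly from the choroid plexus and the meninges.

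The file headers date the arrays to 3 days without naming the step they date. P 1, P 2, NP 2 and NP 3 carry header date 1, NP 4 carries date 2, and P 3 and P 4 carry date 3. Only date 1 holds both lines. The P rats of date 3 stood apart from those of date 1: 16.7% of 28919 tested probes were called between these pairs of rats (limma, adjusted p under 0.05), and 0.0138% in the authors' processed values. Probes above background numbered 26361 to 27608 on the P arrays and 27577 to 29091 on the NP arrays, and the small number of arrays limits the precision. All 7 neuron, 7 astrocyte, 7 oligodendrocyte and 7 microglia markers with a named probe passed the filter on dim probes. Of all 33849 transcript probes 29003 were tested after this filter, so passing it says little about the tissue.

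The comparison of the lines asks whether the IGF system differs in the brain before any alcohol was drunk. None of the 12 probes was called over all 7 arrays by limma, where 0.29% of all 29003 tested probes were, and 1 had an unadjusted p under 0.05, as did 11.5% of all. That probe was Igfbp2, which read higher in every P rat than in any NP rat. Igf1 depended on the rats considered: it was low in P 1 and P 2 and called lower in P among the arrays of header date 1. P 3 read above the NP rats and P 4 among them. The P minus NP differences were above 0 for 6 probes and below 0 for 6, with a median of 0.01 on the log2 scale, also 0.01 over all tested probes. Their median size was 0.13, against 0.14 over all tested probes. The 95% intervals of the 12 differences lay between -0.80 and 0.60 on the log2 scale, reaching 0.25 to 0.52 to either side of the estimate.

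**Figure D1:**
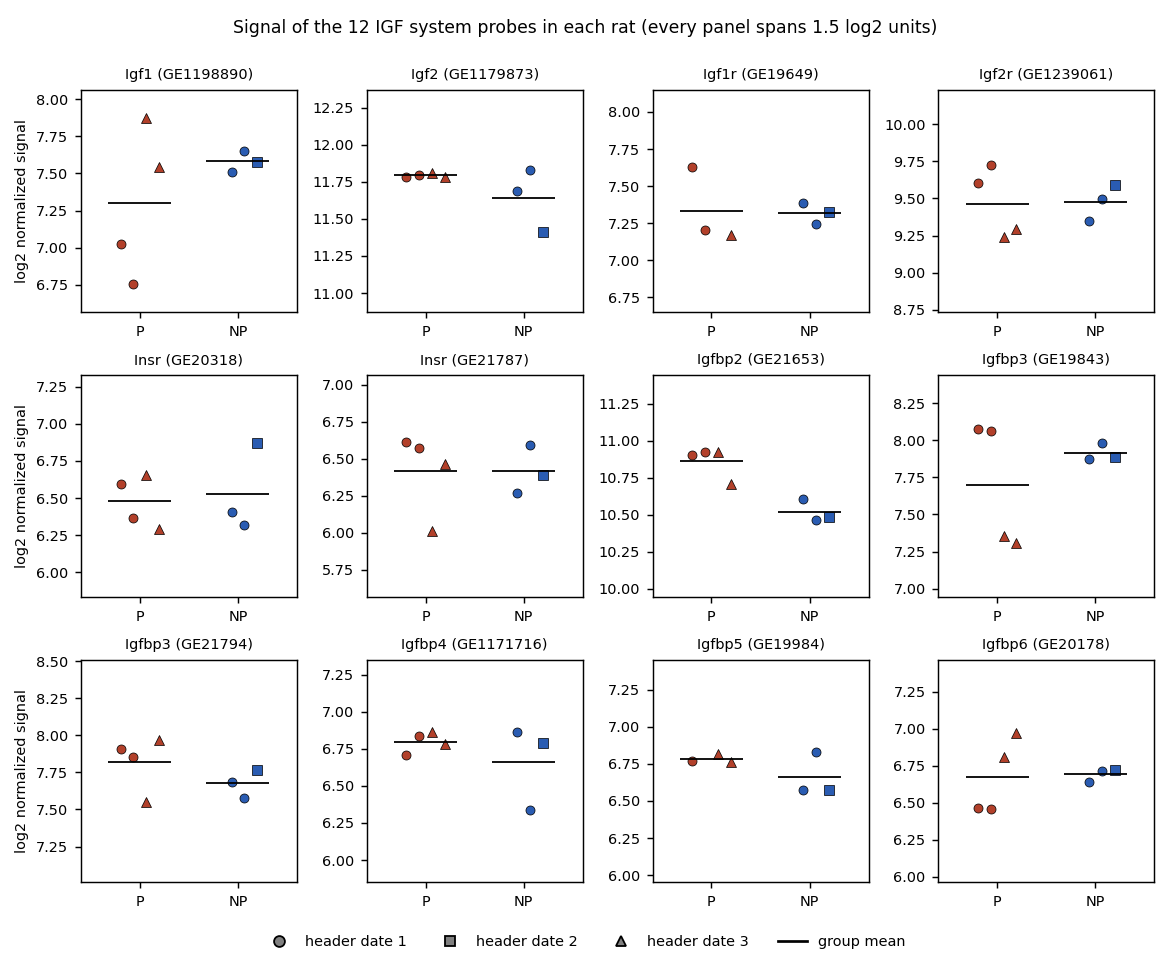
Each panel plots the log2 normalized signal of 1 probe (vertical axis) in each P rat (left) and each NP rat (right). Points are rats, ordered by replicate number, their shape gives the header date, and lines are group means. Igfbp2 is the only panel without overlap (10.71 to 10.93 in P, 10.46 to 10.60 in NP). Igf1, Igf2r, Igfbp3 GE19843 and Igfbp6 are among the panels that separate the P rats of date 1 from those of date 3.

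Of the ligands, Igf1 (probe GE1198890) read 7.03, 6.75, 7.87 and 7.55 in P 1 to P 4, against 7.51, 7.65 and 7.58 in NP 2 to NP 4 (log2 normalized signal). P 1 and P 2 lay below all 3 NP rats, P 3 lay above them and P 4 among them, so the lines overlapped. Over all arrays Igf1 averaged 7.30 ± 0.50 in the 4 P rats and 7.58 ± 0.07 in the 3 NP rats (mean ± SD), a P minus NP difference of -0.28 ± 0.23 (SE, 95% interval -0.80 to 0.23, limma adjusted p = 0.638). The 4 P values thus spread far more widely than the 3 NP values.

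Among the arrays of header date 1 alone, Igf1 was lower in P by -0.69 ± 0.14 (95% interval -1.01 to -0.37, limma adjusted p = 0.0302), and it was the only 1 of the 12 probes called there, where 6.4% of all probes were called and 4.54% called lower. With header date as a block the difference was also -0.69 (limma adjusted p = 0.0372), and 5.72% of all probes were called, 4.07% lower. Its line term rests on the same 4 arrays. In the authors' values for date 1 it missed the threshold (-1.03, limma adjusted p = 0.17), as it did with plain background subtraction (-1.05, limma adjusted p = 0.179). Of all probes 36 and 27 were called in these settings, against 1847 in the main processing of date 1. Without P 1 and P 2 the difference turned to 0.13 ± 0.14 (limma adjusted p = 0.674), with 0.652% of all probes called. Without P 3 and P 4 it was -0.69 ± 0.14 (limma adjusted p = 0.0145), with 11.4% of all probes called and 7.34% called lower. In a whole-brain extract, fewer cells of a type and less RNA per cell cannot be told apart.

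Igf2 (probe GE1179873) read 11.78, 11.80, 11.81 and 11.78 in P 1 to P 4, against 11.69, 11.83 and 11.41 in NP 2 to NP 4. The P rats were almost identical, with an SD of 0.01 (n = 4) against 0.21 (n = 3) in NP, and lay within the NP range. The difference was 0.15 ± 0.12 (95% interval -0.13 to 0.43, limma adjusted p = 0.639), which as a fold is 1.11, with bounds of 0.916 and 1.34. Within header date 1 it was 0.03 ± 0.13 (limma adjusted p = 0.89). Among 5222 named genes left after those with little spread were dropped, those closest to Igf2 over the 7 arrays were Angpt1, Ccnd2, Atp5f1b, Acp3 and Mtr. Their centred log2 values differed from those of Igf2 by a root mean square of 0.028 to 0.045, where the SD of Igf2 itself was 0.15.

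The receptors showed no difference between the lines that passed the test. Igf1r (probe GE19649), the tyrosine kinase that carries most of the IGF1 signal, read 7.63, 7.20 and 7.17 in P 1, P 2 and P 4, against 7.39, 7.24 and 7.33 in NP 2 to NP 4. The spot of P 3 was flagged and left out of the fit. The ranges overlapped, and the difference was 0.01 ± 0.15 (95% interval -0.33 to 0.36, limma adjusted p = 0.978).

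Igf2r (probe GE1239061), which carries IGF2 and mannose 6-phosphate-tagged enzymes to lysosomes and clears IGF2, read 9.60, 9.73, 9.24 and 9.29 in P 1 to P 4, against 9.35, 9.50 and 9.59 in NP 2 to NP 4. P 1 and P 2 lay at or above the highest NP rat and P 3 and P 4 below the lowest. The P means of the 2 dates fell on either side of NP, and the overall difference was -0.01 ± 0.15 (95% interval -0.34 to 0.31, limma adjusted p = 0.981). It was 0.24 ± 0.13 within header date 1 (limma adjusted p = 0.262).

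Insr, the insulin receptor, which also binds IGF2, was read by 2 probes close to the negative control spots, whose medians lay between 6.19 and 6.33 before the arrays were normalized to each other. GE20318 read 6.60, 6.37, 6.66 and 6.29 in P, against 6.40, 6.32 and 6.87 in NP. GE21787 read 6.62, 6.57, 6.02 and 6.46 in P, against 6.27, 6.59 and 6.39 in NP. GE20318 was above background in 3 of 4 P and 3 of 3 NP rats, and GE21787 in 3 of 4 and 2 of 3. Their differences of -0.05 ± 0.16 and -0.00 ± 0.16 (limma adjusted p = 0.914 and 1.00) were smaller than their errors. The rats not above background were P 4 on GE20318 and P 3 and NP 2 on GE21787, so their places in the order carry no weight.

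Igfbp2 (probe GE21653) encodes a main IGF-binding protein of the brain and cerebrospinal fluid, made by the choroid plexus, meninges and glia. It read 10.90, 10.93, 10.92 and 10.71 in P 1 to P 4, against 10.60, 10.46 and 10.48 in NP 2 to NP 4. The lines did not overlap, which held for 1 of the 10 member probes with 7 values and for 13.3% of 27255 tested probes with 7 values. The mean ± SD of Igfbp2 was 10.86 ± 0.10 over the 4 P rats and 10.52 ± 0.08 over the 3 NP rats. The difference of 0.35 ± 0.11 (95% interval 0.10 to 0.60) is a fold of 1.27, with bounds of 1.07 and 1.52. Its unadjusted p by limma was 0.0116, rank 1001 among all tested probes, and it failed the correction over all probes (adjusted p = 0.335).

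The Igfbp2 difference was about as large on each subset of arrays. It was 0.38 ± 0.13 within header date 1 (limma adjusted p = 0.1), 0.30 ± 0.13 without P 1 and P 2 (adjusted p = 0.293) and 0.40 ± 0.13 without P 3 and P 4 (adjusted p = 0.064). With each array left out in turn it ran from 0.32 to 0.40, with no call. In the authors' deposited log2 values the P rats read 4.22, 4.27, 4.23 and 4.00 and the NP rats 3.90, 3.79 and 3.81, again with no overlap. The fit to those values gave 0.35 ± 0.13 (limma adjusted p = 0.453).

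Of the markers of cells that make Igfbp2, 7 meningeal and fibroblast genes were tested. None was called over all arrays, where 0.29% of all probes were, and their median difference was 0.15. The summed signal of the 6 with 7 values was 2760 to 3718 in P and 2570 to 3039 in NP, in linear normalized units. This P range was split by header date. The sum was 3546 to 3718 in the P rats of date 1, above the NP range. In the P rats of date 3 it was 2760 to 2906, within the NP range. Every P value lay above every NP value for 3 of these 6, where this held for 6.91% of all probes. Slc6a13, a GABA and taurine transporter of the meninges, read 7.95 to 8.24 in P and 7.14 to 7.63 in NP (0.73 ± 0.15, limma adjusted p = 0.112). The organic anion transporters Slc22a6 (0.72 ± 0.18, limma adjusted p = 0.244) and Slc22a8 (0.46 ± 0.17, limma adjusted p = 0.375) were the others. The fibroblast genes Col1a2 (0.11 ± 0.14) and Dcn (-0.06 ± 0.15) did not pass the test. Nor did Aldh1a2 (0.15 ± 0.23) and Ptgds (0.07 ± 0.14). Aldh1a2 read 9.02 to 9.29 in NP. P 1 and P 2 lay above that range (9.74 and 9.76) and P 3 and P 4 below it (8.98 and 8.83). Within header date 1, 3 of the 7 were called higher (Slc6a13, Slc22a6 and Aldh1a2), with a median of 0.57. Called higher there were 1.86% of all probes and 143 of 5636 tested genes. Calls within date 1 depended on the processing: 1847 probes were called here, 36 in the authors' values and 27 with plain background subtraction. Among glial cells, 7 astrocyte markers were tested over all arrays, with no call, beside 0.29% of all probes, and a median difference of 0.02. They went both ways, among them Aqp4 (-0.45 ± 0.19, limma adjusted p = 0.418) and Slc1a2 (0.24 ± 0.13, limma adjusted p = 0.499). The part of meningeal or glial content in the Igfbp2 values was not tested.

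For the choroid plexus 7 markers were tested, with no call, beside 0.29% of all probes, and a median difference of 0.03. The members went both ways, with 4 differences above 0 and 3 below. Kcne2, a potassium channel subunit, had the smallest p and read 7.91 to 8.12 in P and 8.20 to 8.53 in NP (-0.32 ± 0.13, limma adjusted p = 0.391), where every P value lay below every NP value for 6.37% of all probes. Folr1, a folate receptor, came next and read 8.88 to 9.29 in P and 8.76 to 8.88 in NP (0.29 ± 0.13, limma adjusted p = 0.434). Ttr, the thyroid hormone carrier that defines this tissue, differed by -0.18 ± 0.19 (limma adjusted p = 0.716). The summed signal of the 7 was 5711 to 7475 in P and 6374 to 8946 in NP and is weighted to the brightest probes. It was 5711 to 6756 in the P rats of header date 1 and 7451 to 7475 in those of date 3. Clic6 was not above background on any array.

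Among 4949 named genes left after the same step, those closest to Igfbp2 over the 7 arrays were Noc4l, Yif1a, Stom, Ighmbp2 and Ms4a2. Their centred log2 values differed from those of Igfbp2 by a root mean square of 0.058 to 0.069, where its own SD was 0.20.

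Igfbp3, the main carrier of IGFs in serum, was read by 2 probes of the same transcript that did not give the same picture. GE19843 read 8.08, 8.06, 7.35 and 7.30 in P 1 to P 4, against 7.87, 7.98 and 7.89 in NP 2 to NP 4. GE21794 read 7.91, 7.85, 7.55 and 7.97 in P, against 7.68, 7.57 and 7.77 in NP. On GE19843 the pair P 1 and P 2 lay above every NP rat and the pair P 3 and P 4 below every NP rat. On GE21794 only P 3 lay below the NP rats, and P 4 was the highest of all.

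Between the lines the Igfbp3 probes differed by -0.21 ± 0.21 for GE19843 and 0.14 ± 0.13 for GE21794 (limma adjusted p = 0.685 and 0.673), opposite in sign. Levels of separate probes cannot be set against each other, but the log2 gap between them (GE19843 minus GE21794) can be followed from rat to rat. It was 0.17, 0.21, -0.20 and -0.66 in P 1 to P 4, against 0.19, 0.41 and 0.12 in NP 2 to NP 4. P 3 lay below every NP rat on both probes, while P 4 was the lowest rat on GE19843 and the highest on GE21794.

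**Figure D2:**
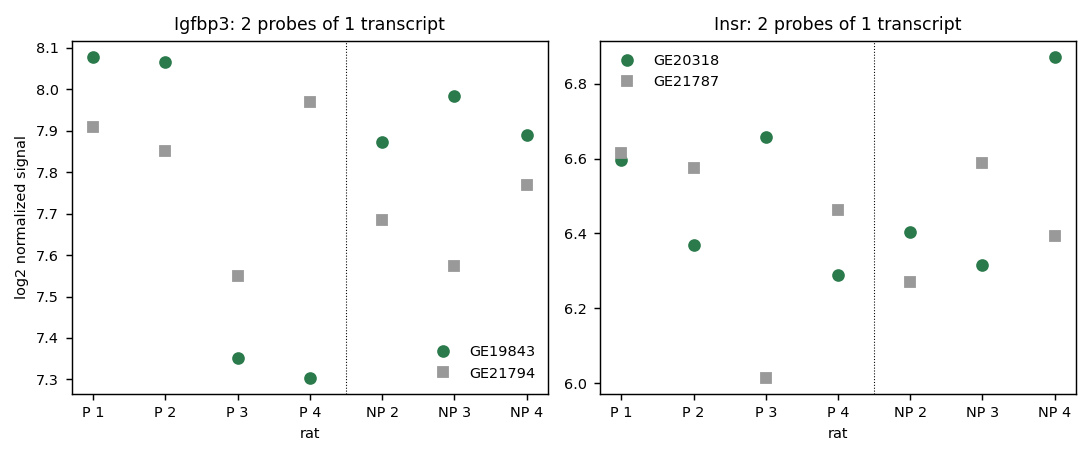
The log2 normalized signal (vertical axis) of the 2 probes of Igfbp3 (left) and of Insr (right) is plotted for each of the 4 P and 3 NP rats. Circles and squares are the 2 probes, and the dotted line parts the lines of rats. What counts is how each probe orders the rats: P 3 and P 4 are the lowest rats on Igfbp3 GE19843 (7.35 and 7.30), while P 4 is the highest on GE21794 (7.97).

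Igfbp4, which binds IGFs and holds them back until a protease cuts it, read 6.71, 6.84, 6.86 and 6.79 in P, against 6.86, 6.34 and 6.79 in NP (probe GE1171716). The groups overlapped, with NP 3 the lowest rat, and the difference was 0.14 ± 0.14 (95% interval -0.18 to 0.45, limma adjusted p = 0.714). Igfbp5, which binds the extracellular matrix as well as IGFs, read 6.77, 6.82 and 6.76 in P 1, P 3 and P 4, against 6.57, 6.83 and 6.57 in NP (probe GE19984). The spot of P 2 was flagged and left out, and the difference was 0.12 ± 0.13 (95% interval -0.16 to 0.41, limma adjusted p = 0.711). Both probes gave signals not far above the negative controls.

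Igfbp6, a binding protein with a preference for IGF2, read 6.46, 6.46, 6.81 and 6.97 in P 1 to P 4, against 6.64, 6.72 and 6.72 in NP 2 to NP 4 (probe GE20178). P 1 and P 2 lay below every NP rat and P 3 and P 4 above every NP rat. These opposite offsets left a mean difference of -0.02 ± 0.15 (95% interval -0.35 to 0.31, limma adjusted p = 0.968). This probe was above background in every rat, but its signals too were not far above the negative controls.

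Igf2r, Igfbp3 GE19843 and Igfbp6 placed the P rats of the 2 header dates on opposite sides of the NP rats, and Igf1 parted them as well. These P rats were compared directly because the header dates are only partly shared by the lines. Here 3 of the 12 probes, 25%, were called by limma, where 16.7% of all tested probes were, 9.15% higher and 7.56% lower, so the share of calls was not far from that background. Igf1 was higher in P 3 and P 4 than in P 1 and P 2 by 0.82 ± 0.16 (95% interval 0.47 to 1.17, adjusted p = 0.00933). Igfbp6, with signals not far above the negative controls, was higher by 0.43 ± 0.13 (95% interval 0.15 to 0.71, adjusted p = 0.0444). Igfbp3 GE19843 was lower by -0.74 ± 0.12 (95% interval -1.02 to -0.47, adjusted p = 0.00601), while GE21794 gave -0.12 ± 0.15 (adjusted p = 0.627). Igf2r missed the threshold at -0.40 ± 0.13 (adjusted p = 0.0594), and Igf2 at 0.00 ± 0.12 had its interval between -0.27 and 0.28. In this comparison Igf1r lacked P 3 and Igfbp5 lacked P 2.

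These calls depended on the processing. In the authors' values none of the 12 was called, where 0.0138% of all probes were. The differences there were 1.25 for Igf1, -0.93 for Igfbp3 GE19843 and 0.90 for Igfbp6 (limma adjusted p of 0.0534, 0.0503 and 0.0534). With plain background subtraction only Igfbp3 GE19843 was called (limma adjusted p = 0.0476), and 1.99% of all probes were. With scaling to the 75th percentile, the median over all probes was -0.24 and that over the 12 was also -0.24, so differences there are read against that shift. On that scale 4 of the 12 were called, where 34.3% of all probes were. They were Igf1 at 0.62, Igfbp3 GE19843 at -0.85, Insr GE20318 at -0.48 and Insr GE21787 at -0.84 (limma adjusted p of 0.0125, 0.00242, 0.04 and 0.0093), while Igfbp6 stood at 0.064 (limma adjusted p = 0.78). The rats of each date are 2 animals, and header date and the animals cannot be told apart.

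**Figure D3:**
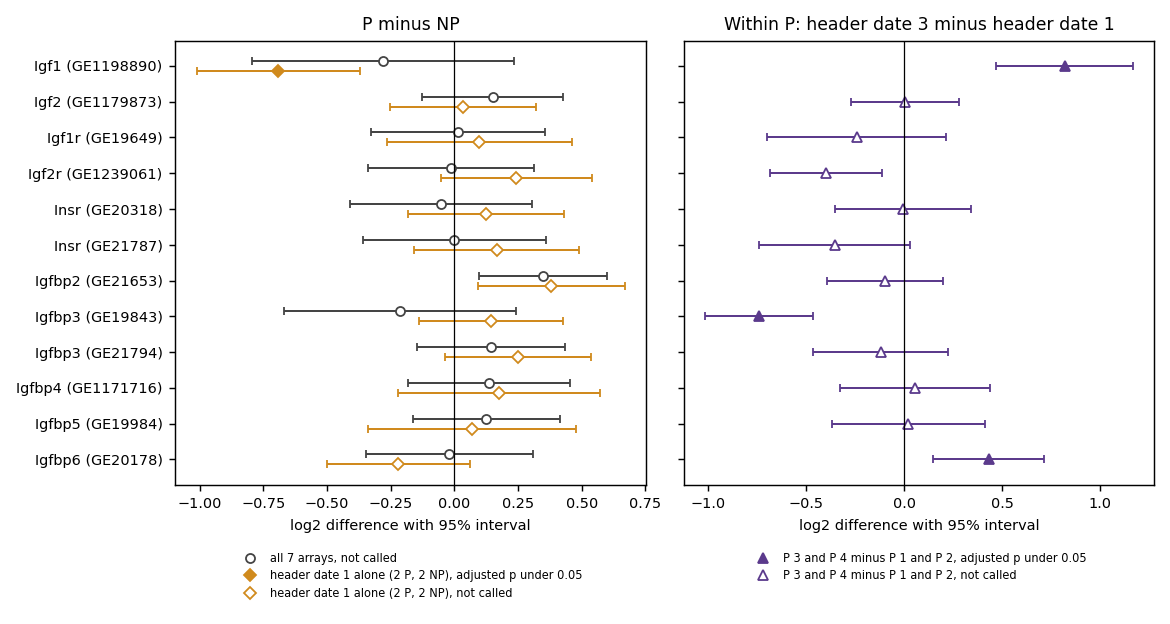
Log2 differences with 95% intervals (horizontal axis) are shown for the 12 probes. The left panel gives P minus NP over all 7 arrays (circles) and on header date 1 alone (diamonds), the right panel gives P 3 and P 4 minus P 1 and P 2 (triangles), and filled symbols have a limma adjusted p under 0.05. Filled are Igf1 at -0.69 on date 1 and, within P, Igf1 at 0.82, Igfbp3 GE19843 at -0.74 and Igfbp6 at 0.43, while Igfbp2 at 0.35 has an interval above 0 without being called.

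The spread among rats was larger in P than in NP for 8 of the 12 probes, 66.7%, and for 67.3% of all tested probes. The median SD of the 12 was 0.21 in P and 0.11 in NP, against 0.19 and 0.14 over all probes.

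To show the regulatory sequence of the genes these results turn on, the 250 bases before the annotated start are given for Igfbp2 and for Igf1 and Igfbp6, which were both called higher in P 3 and P 4. All 10 genes matched the RefSeq promoter table of build GRCr8, and sequences run 5′ to 3′ on the plus strand. Capitals mark the only match to the motifs searched on both strands: GGGCGG (the GC box bound by Sp1), TATAAA and TGACGTCA (the full cyclic AMP response element).
Igfbp2, chr9:81864561-81864810: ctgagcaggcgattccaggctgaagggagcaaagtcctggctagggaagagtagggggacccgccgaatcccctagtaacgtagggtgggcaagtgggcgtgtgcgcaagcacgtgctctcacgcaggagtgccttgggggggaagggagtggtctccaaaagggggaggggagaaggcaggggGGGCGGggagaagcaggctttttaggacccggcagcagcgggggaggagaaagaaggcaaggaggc
Igf1, chr7:24172282-24172531: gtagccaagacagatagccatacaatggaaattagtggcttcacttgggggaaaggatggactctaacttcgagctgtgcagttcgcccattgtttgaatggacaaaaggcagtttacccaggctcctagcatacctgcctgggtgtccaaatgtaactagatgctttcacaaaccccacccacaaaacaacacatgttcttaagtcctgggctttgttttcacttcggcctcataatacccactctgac
Igfbp6, chr7:135154669-135154918: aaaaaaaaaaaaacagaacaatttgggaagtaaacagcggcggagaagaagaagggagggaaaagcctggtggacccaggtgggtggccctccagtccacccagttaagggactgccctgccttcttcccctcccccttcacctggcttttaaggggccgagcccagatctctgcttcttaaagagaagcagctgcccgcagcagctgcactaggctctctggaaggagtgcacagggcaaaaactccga

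The 3 windows differed in base composition. The GC share was 64% for Igfbp2, 46.8% for Igf1 and 54.8% for Igfbp6, where the median of 33469 promoters was 51.2%. They held 11, 3 and 5 CpG dinucleotides in that order. GGGCGG occurred in 30.5%, TATAAA in 12.9% and TGACGTCA in 1.59% of all such windows. A missing match says only that these letters are not in the window.

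Of the 20 further genes listed for hormone supply, carriers and proteases, 9 were tested and none was called between the lines. Of all 5677 tested genes 8 were called higher and 2 lower. The median difference was -0.09 for the 9, against 0.03 over all tested genes. The members with the smallest p were Ccn2, a matricellular growth factor partner once grouped with the binding proteins (-0.28 ± 0.12, limma adjusted p = 0.426), and Ghr, the growth hormone receptor that drives Igf1 in liver (-0.36 ± 0.18, limma adjusted p = 0.463). Igfbp1 (-0.12 ± 0.11) and Igfbp7 (-0.07 ± 0.13) did not pass. Between the P rats of date 3 and date 1, Ccn1, a further matricellular protein, was called lower (-0.44, limma adjusted p = 0.0471). It was the only 1 of the 9 called there, beside 16.7% of all probes, 7.56% lower.

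Of 47 listed genes that carry the signal from the receptors, 30 were tested. None was called between the lines, where 0.29% of all probes were, and their median difference was 0.08. The smallest p belonged to the kinases Akt2 (0.49 ± 0.15, limma adjusted p = 0.316) and Akt1 (0.43 ± 0.18, limma adjusted p = 0.419), which act below the receptors and phosphatidylinositol 3-kinase. Irs1, the adaptor that the IGF1 and insulin receptors phosphorylate, gave 0.10 ± 0.13 (limma adjusted p = 0.753). Within header date 1 only Rps6, a ribosomal protein phosphorylated at the end of the mTOR branch, was called (-0.87, limma adjusted p = 0.0266), 1 of 30 genes beside 6.4% of all probes. Over all arrays Rps6 gave -0.16 ± 0.30 (limma adjusted p = 0.844). Between the P rats of date 3 and date 1, 4 of the 30 were called higher and 3 lower, beside 16.7% of all probes called in either direction. The 3 with the largest differences were Tsc2, an inhibitor of mTOR (-0.99, limma adjusted p = 0.00414), Eif4e, the cap-binding translation factor (0.91, limma adjusted p = 0.00668), and Rps6 (0.83, limma adjusted p = 0.0122).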

How the data were processed

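Biotin-labelled RNA of 1 rat went on each 1-colour array, per the labels. Per the file headers, the deposited scanner tables give spot and local background intensity, intensity after background subtraction and after scaling, and quality flags per spot. A second deposited table holds the authors' log2 values, matched here by spot row and column. It followed the log2 of the scaled intensity (r of 0.9985 or higher, column medians between -0.07 and 0.05), so scale and direction match, while a further adjustment between arrays is unknown. The sources used here do not give the scanner software or the build behind the probes.

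Spot intensities, control spots included, were corrected with normexp (offset 50) with limma 3.58.1 in R 4.3.3. Spots with quality flag M, I or C were then set to missing, and those with flag S were kept. Control spots were left out, and the 33849 transcript probes were quantile normalized. The 29003 probes that were above background on at least 3 of 7 arrays and could be fitted were tested. All 12 member probes passed this filter, 8 of them above background on all 7 arrays. Lines were compared with lmFit and eBayes without a block, adjusted by Benjamini-Hochberg over all tested probes, and a call is an adjusted p under 0.05. Differences are P minus NP, or date 3 minus date 1, in log2. The P rats of the 2 dates were compared in a fit with line and date as 1 factor. The fit was tested on simulated data.

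Probes were named through RefSeq transcripts of the GRCr8 table, which named 7207 probes for 6046 genes. All member probes are described. Lists use the brightest probe of a gene, and name up to 3 called members or those with the smallest p. Igfbp1, Igfbp7, Irs1, Ttr, astrocyte markers and further meningeal markers were added after their values were seen. Members and lists were chosen with earlier results of these data known. Alternatives were the background correction, scaling, filter, variance prior, the authors' values, replicate number or header date as a block, date 1 alone, and arrays left out. Date 1 alone with other processing was added after seeing the data. Figures were drawn with matplotlib 3.10.9.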

Additional observations from a re-analysis of the deposited data

Results flagged for a closer look

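Igfbp2 in P 4 read 10.71 on the log2 scale, apart from the other P rats at 10.90 to 10.93 and on the side of the NP rats, which read 10.46 to 10.60. It was the only 1 of 10 member probes with 4 P values that had such a lone distant sample, where chance flags about 1 in 20. With 3 rats, NP is too small for this check. Without P 4 the P minus NP difference of Igfbp2 was 0.40 (limma adjusted p = 0.381).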

How the results depend on the processing

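Of all tested probes 84 were called between the lines. The count was 49 with only probes above background on all 7 arrays, 51 with the authors' values, 189 without the P arrays of header date 1 and 3310 without those of date 3. It was 1659 with header date as a block and 1847 within date 1, where the authors' values gave 36, plain background subtraction 27 and scaling to the 75th percentile 1644. Leaving out each array gave 51 to 121, with 53 without NP 3 and 51 without NP 4. No IGF probe was called over all arrays, nor with any array left out (0 to 0). The call of Igf1 made the count 1 with the date block, within date 1, within date 1 with 75th percentile scaling, and without the P arrays of date 3. Between the P dates the 3 calls became 1 with plain subtraction, 0 with the authors' values and 4 with 75th percentile scaling, which lost Igfbp6 and gained both Insr probes. Of all probes 16.7% were called there, and 1.99%, 0.0138% and 34.3% in these settings in that order. The causes were not tested.

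Signs turned as follows. Without the P arrays of date 1, Igf1 was 0.13, Igf1r -0.15 and Igfbp6 0.20. With the date block and within date 1 alike, Igf2r was 0.24, Insr GE20318 0.12, Insr GE21787 0.17 and Igfbp3 GE19843 0.14. Within date 1 the authors' values gave 0.25, 0.26, 0.38 and 0.14 for these 4 probes, plain subtraction 0.26, 0.29, 0.40 and 0.18, and 75th percentile scaling 0.27, 0.29, 0.33 and 0.15. Without the P arrays of date 3, Igf2r was 0.19, Insr GE21787 0.18 and Igfbp3 GE19843 0.16. With arrays left out in turn, the differences ran from -0.13 to 0.10 for Igf1r, -0.10 to 0.064 for Igf2r, -0.16 to 0.12 for Insr GE20318, -0.074 to 0.13 for Insr GE21787, -0.027 to 0.24 for Igfbp4 and -0.12 to 0.053 for Igfbp6. Scaling to the 75th percentile gave -0.020 for Igfbp5, and between the P dates -0.045 for Igf2, -0.27 for Igfbp4 and -0.20 for Igfbp5. The authors' values gave -0.035 for Igf2 there. Scaling to the 75th percentile moved the median of all probes to -0.24 between the P dates and 0.13 within date 1.

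Deviations of same-numbered rats from their line means correlated at 0.097, 0.057 and 0.021. P 2 correlated best with its own number, and P 3 and P 4 with another. The highest correlation, 0.36, was between P 1 and NP 2, which share header date 1. With header dates only partly shared by the lines, these values cannot settle whether replicate numbers pair the rats. With the replicate block 102 probes were called and no IGF probe, and the differences of Igf1r and Igfbp6 were -0.17 and 0.051. Signal over background limits Insr most.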
